A study of Mus musculus with 8 samples.

Results

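The 10 genes described here are the transcription factors and repressors at the centre of the mammalian circadian clock, measured in the white quadriceps of mice. They are Arntl, Clock, Per1, Per2, Per3, Cry1, Cry2, Nr1d1, Nr1d2 and Dbp. They were taken by gene name from a table of 54091 genes, in which each of the 10 had 1 row, and 10 of 10 passed the filter on low values. The study sequenced RNA from white quadriceps, thigh muscle rich in fast glycolytic fibres, of chow-fed male mice aged 11 to 14 weeks. The Cre group (4 animals, Cre 5 to Cre 8) carried a Cre recombinase under the muscle creatine kinase promoter (CKM) and lacked Acot2 in muscle, and the Loxp group (4 animals, Loxp 1 to Loxp 4) had loxP sites on both alleles. The genotype given for the Loxp group names no Cre, so a difference between the groups can come from the recombinase as well as from Acot2, and the 2 cannot be told apart. The sources used here do not name the exons that the loxP sites flank.

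The tissue was collected in a single window, from 9:00 to 10:30 in the morning. The labels give neither the lighting schedule nor the time at which each animal was sampled. The libraries therefore show the clock genes at 1 stretch of the day. In what varies among them, the animal and its time of sampling within the window cannot be told apart.

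The clock of a mammalian cell is a loop of transcription and repression that takes about a day to complete. ARNTL (also called BMAL1) and CLOCK bind as a pair to E-boxes and switch on Per, Cry, Nr1d and Dbp genes. PER and CRY proteins then return to the nucleus and inhibit the pair that made them. NR1D1 and NR1D2 (REV-ERB alpha and beta) are nuclear receptors that repress Arntl through response elements that they share with the activating ROR receptors, so that Arntl transcripts peak when those of its targets are near their trough. DBP acts through D-boxes as an output of the loop, and NFIL3 competes with it there. Skeletal muscle runs this clock in its fibres, where it times glucose and lipid use.

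The sequences at the starts of these genes were searched for the letter patterns known for clock factors. Promoter windows from RefSeq on GRCm38.p6, from 250 bases before to 50 after an annotated start, were held for 9 of the 10 genes (13 windows, with more than 1 for genes with alternative starts). They were searched on both strands for the E-box CACGTG, the E′-box CACGTT and the D-box TTATGNAA. A further pattern, TNGGTCA, was a loose form of the core of the ROR and REV-ERB response element. N stands for any letter, so a match to TNGGTCA need not be such a core. The E-box and E′-box differ in their last letter, so no stretch was counted as both. Over all 32851 promoter windows of that length, 7.15% held the E-box, 4.68% the E′-box, 3.38% the D-box and 11.0% a match to TNGGTCA. A match describes letters in the window and is not evidence of binding.

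The Arntl window is shown because Arntl is the arm of the loop on which the REV-ERB receptors act. It covers chr7:113207215-113207464, plus strand, and the capital stretches match TNGGTCA, with T and then C at the open letter. The site below it holds a further match, with A at the open letter and again in capitals. It lies 31 to 37 bases downstream of the second annotated Arntl start, at chr7:113207532-113207556, plus strand.
Arntl promoter: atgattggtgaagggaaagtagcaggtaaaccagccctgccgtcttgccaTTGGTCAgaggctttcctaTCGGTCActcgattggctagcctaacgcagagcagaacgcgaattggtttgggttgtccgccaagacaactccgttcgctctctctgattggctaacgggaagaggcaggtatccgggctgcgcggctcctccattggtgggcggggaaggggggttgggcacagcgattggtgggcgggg
Arntl downstream site: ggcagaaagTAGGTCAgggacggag

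The Per1 and Per3 windows are shown for the other arm. In Per1, at chr11:69098699-69098948, plus strand, the capitals mark an E-box and then a D-box. The window of the other Per1 start, at chr11:69099902-69100151, held none of the 4 patterns and is not printed. In Per3, at chr4:151044666-151044915, minus strand, the capitals mark 2 D-boxes and then a match to TNGGTCA read on the opposite strand.
Per1 promoter: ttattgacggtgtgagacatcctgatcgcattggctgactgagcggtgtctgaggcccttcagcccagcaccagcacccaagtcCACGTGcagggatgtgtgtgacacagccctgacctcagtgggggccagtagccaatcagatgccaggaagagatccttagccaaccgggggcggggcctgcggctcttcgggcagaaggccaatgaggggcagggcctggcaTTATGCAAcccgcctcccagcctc
Per3 promoter: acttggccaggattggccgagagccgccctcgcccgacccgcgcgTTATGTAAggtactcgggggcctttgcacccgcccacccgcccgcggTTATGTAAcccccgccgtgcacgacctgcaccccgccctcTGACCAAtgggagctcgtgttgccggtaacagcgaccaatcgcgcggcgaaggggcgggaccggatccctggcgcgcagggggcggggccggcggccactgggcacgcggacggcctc

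Among the other windows, the one of Cry1 held an E-box and an E′-box, and the one of Nr1d1 an E′-box. The one of Cry2 held an E′-box and a match to TNGGTCA. Those of Clock, Dbp and Nr1d2 held none of the 4 letter patterns in these 300 bases.

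Before the clock genes, the targeted gene was checked. Acot2, which encodes a mitochondrial acyl-CoA thioesterase, had 43.8, 42.8, 53.7 and 48.9 normalized reads in Cre 5 to Cre 8, against 213, 149, 251 and 240.2 in Loxp 1 to Loxp 4. A normalized read is a read count divided by 1 factor per library. Acot2 was lower in every Cre library than in any Loxp library (log2 fold change -2.13, SE 0.18, adjusted p = 0.000961573, limma with Benjamini-Hochberg adjustment over 13638 genes). Recovered library totals ran from 30415431 to 48834283 reads. All 6 defining genes of fast glycolytic fibres passed the filter, and their summed level ran from 4378670 to 5391650 normalized reads in Cre and from 4710890 to 5700120 in Loxp, the highest of the marker sums. Marker sums of other fibres and cells stood apart in some libraries. Those of 3 oxidative fast fibre genes were 51069 in Cre 7, 52219 in Cre 8, 74230 in Loxp 3 and 51669 in Loxp 4. They were 4480 in Cre 5, 6585 in Cre 6, 7902 in Loxp 1 and 834 in Loxp 2. Those of 8 slow fibre genes reached 6979 in Cre 7 and 17979 in Cre 8, against 1642 to 2566 in the other 6 libraries. Those of 10 adipocyte genes reached 28765 in Loxp 2 and 15487 in Loxp 3, against 7643 to 9303 in the other 6. In RNA from whole tissue, fewer cells of a type and less RNA per cell cannot be told apart.

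The clock genes differed widely in level once read counts were divided by exon length (GENCODE M21 on GRCm38). Per kilobase of exon, Nr1d2 was the highest, at 1110 ± 116 normalized reads in Cre and 1025 ± 92.5 in Loxp (SD, n = 4 each). Nr1d1 followed with 826 ± 42.0 in Cre and 871 ± 17.2 in Loxp, and Dbp with 471 ± 106 in Cre and 418 ± 132 in Loxp. The libraries of each of these did not overlap those of its neighbour in the order. Clock came next at 195 ± 9.25 in Cre and 192 ± 7.40 in Loxp and overlapped no other of the 10. Cry1 (141 ± 9.98 in Cre, 138 ± 13.9 in Loxp), Arntl (134 ± 20.5 in Cre, 135 ± 17.9 in Loxp) and Cry2 (120.2 ± 13.3 in Cre, 119 ± 18.0 in Loxp) overlapped one another over the 8 libraries. Per1 (58.7 ± 7.75 in Cre, 56.3 ± 14.3 in Loxp) and Per3 (55.2 ± 13.5 in Cre, 53.6 ± 4.36 in Loxp) likewise overlapped. Per2 was the lowest at 24.5 ± 10.9 in Cre and 22.4 ± 11.4 in Loxp, and its highest library reached into the range of Per1. In this morning window the REV-ERB transcripts and Dbp were thus the most abundant of the 10 per length, and the Per transcripts the least.

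The positive arm consists of Arntl and Clock, which encode the partners of the activating pair. Arntl (chr7:113207465-113314126, plus strand) had 1113, 804, 966 and 1139.6 normalized reads in Cre 5 to Cre 8, against 841, 1149, 979.9 and 1085 in Loxp 1 to Loxp 4. Each group thus held a library near the bottom of the range (Cre 6 and Loxp 1) and a library at the top (Cre 8 and Loxp 2). Clock (chr5:76209868-76304792, minus strand) had 2686, 2490.5, 2783 and 2727 normalized reads in the Cre libraries, against 2559, 2780.0, 2639.9 and 2571 in the Loxp libraries. The lowest library was again Cre 6, but the highest was only 1.12-fold above the lowest, whereas for Arntl this ratio was 1.43.

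The REV-ERB genes form the arm that represses Arntl. Nr1d1 (chr11:98767932-98775333, minus strand) had 2585, 2695, 2490.3 and 2393 normalized reads in Cre, against 2676, 2613, 2692 and 2741 in Loxp. The groups overlapped, with Cre 8 the lowest of the 8 libraries and Loxp 4 the highest. Nr1d2 (chr14:18204054-18239127, minus strand) had 5811, 6723, 6232 and 5250.1 in Cre, against 6085, 4967, 5811 and 5312 in Loxp. Its highest library was Cre 6, which was the lowest for Arntl, and its lowest was Loxp 2, which was the highest for Arntl. Nr1d1 shares 263 bases of exon (8.55% of its exon length) with Thra, a thyroid hormone receptor gene on the other strand. The libraries were stranded, but no source used here states the strand setting of the counting. Whether reads of Nr1d1 and Thra in that stretch were kept apart is therefore not known. Thra itself averaged 1432 ± 44.7 normalized reads in Cre and 1421 ± 63.4 in Loxp.

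The period genes encode the repressors that pair with CRY proteins. Per1 (chr11:69095217-69109960, plus strand) had 295, 390.0, 337 and 300.3 normalized reads in Cre, against 376, 199, 332 and 361 in Loxp. Per2 (chr1:91415982-91459324, minus strand) had 159, 225, 111 and 78.6 in Cre, against 225, 68.3, 111 and 121 in Loxp. Per3 (chr4:151003652-151044665, minus strand) had 548, 698, 484 and 390.3 in Cre, against 572, 519, 481 and 486 in Loxp. For all 3 genes Cre 6 and Loxp 1 held the 2 highest values, and the lowest value was in Loxp 2 for Per1 and Per2 and in Cre 8 for Per3. Per2 rested on the fewest reads. Its lowest library, Loxp 2, held 61 reads, with an exact 95% Poisson interval of 46.7 to 78.4, and its highest held 224. That interval covers counting error only.

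The cryptochromes, the partners of the PER proteins, moved over a smaller range. Cry1 (chr10:85131700-85185064, minus strand) had 459.6, 473, 433 and 513 normalized reads in Cre, against 457, 495, 398 and 498 in Loxp. Cry2 (chr2:92403646-92434043, minus strand) had 817, 846, 692 and 684 in Cre, against 768, 759.9, 599 and 875 in Loxp. The lowest library was Loxp 3 for both, and neither gene had Cre 6 or Loxp 1 at an end of its range. Cry2 shares 295 exon bases (4.67%) with the transcript D930015M05Rik on the other strand, so the same limit on strand holds for it. Arntl shares 33 bases (0.439%) with Gm45355 in the same way.

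Dbp, the output factor, had 1430.2, 1754, 1468 and 988 normalized reads in Cre, against 1800.3, 911, 1272 and 1025 in Loxp (chr7:45705088-45710203, plus strand). Cre 6 and Loxp 1 were the 2 highest of the 8 libraries, and Cre 8 and Loxp 2 the 2 lowest, the reverse of their places for Arntl. Dbp shares 539 exon bases (18.0%) with Sphk2, a sphingosine kinase gene on the other strand, which averaged 346 ± 26.5 normalized reads in Cre and 386 ± 23.7 in Loxp. Whether reads of the 2 genes in the shared stretch were kept apart in the counting is likewise not known.

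**Figure D1:**
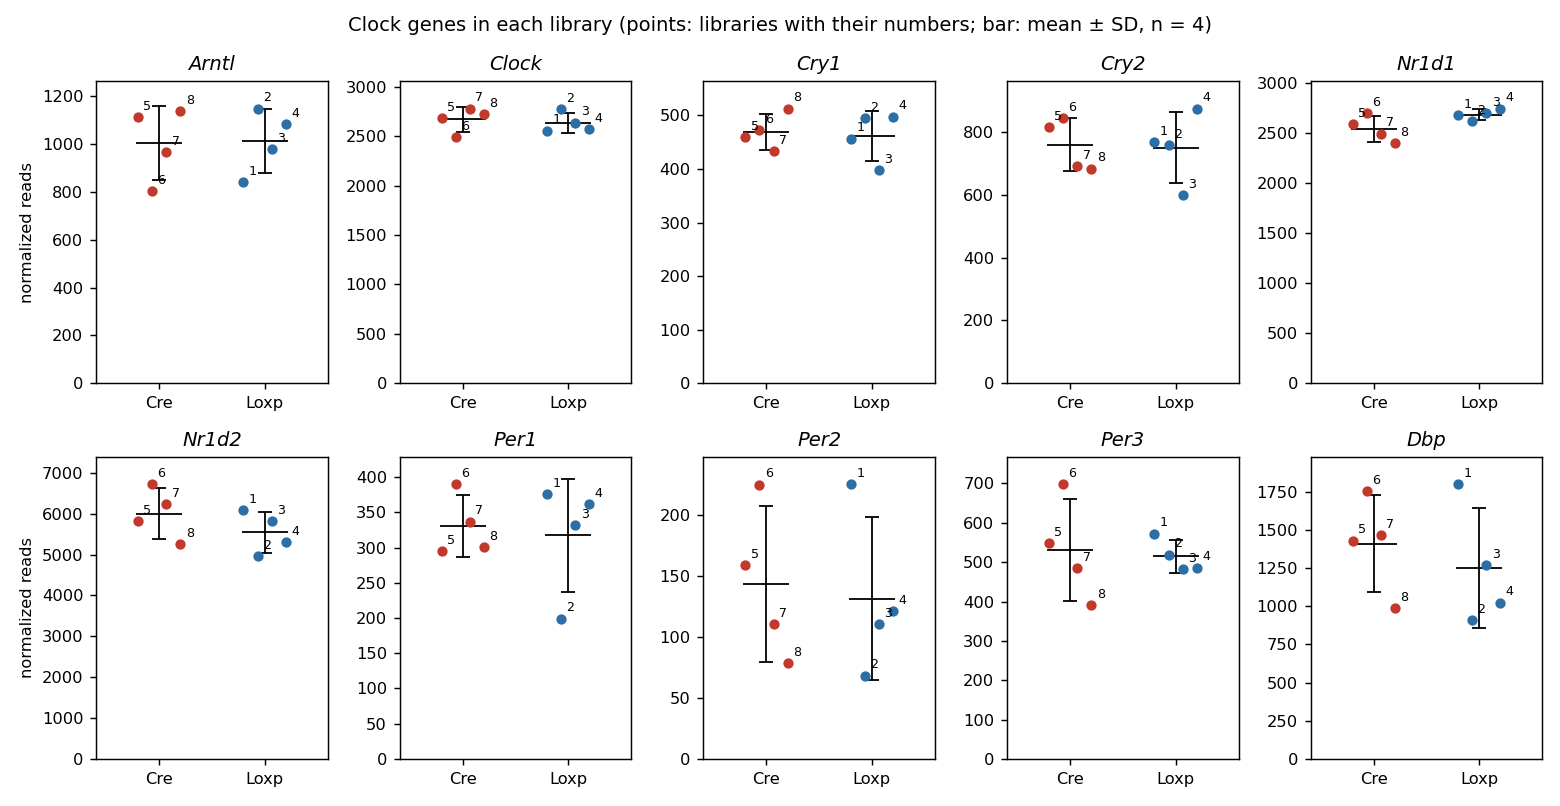
Normalized reads (vertical axes, from 0) of the 10 clock genes in each of the 8 libraries, with Cre left of Loxp in every panel, points for libraries and bars for the group mean ± SD (n = 4 each). The groups overlap in every panel, and Cre 6 and Loxp 1 lie at the bottom for Arntl (804 and 841) and at the top for Dbp (1754 and 1800.3).

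The comparison of the Cre with the Loxp libraries asks whether the clock genes of muscle differ when Acot2 is lost. None of the 10 genes passed the test in either direction (limma on the log2 values, Benjamini-Hochberg adjustment over all 13638 tested genes, threshold 0.05), and the adjusted p was 0.999526 for each. Of all tested genes 0.0147% were called, 0.00733% higher in Cre and 0.00733% lower. These 2 genes were Acot2, which was lower, and Kbtbd12, a gene of the kelch and BTB family that was higher in Cre (5200.2 ± 366 normalized reads in Cre and 1752 ± 59.1 in Loxp, adjusted p = 6.00e-07). With unadjusted p-values none of the 10 clock genes passed 0.05 either, while 2.91% of all genes did. No clock gene had groups without overlap, against 1.92% of all genes.

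The fold changes of the clock genes were small, and their intervals say how large a difference the 4 animals per group leave possible. Dbp had the largest estimate, a log2 fold change of 0.19 (SE 0.21, 95% interval -0.27 to 0.65), with means of 1410.3 ± 316 normalized reads in Cre and 1252 ± 395 in Loxp. This estimate moved with single libraries, to 0.056 without Loxp 2 and 0.077 without Cre 6, where it was smaller in size than those of Per2 (-0.10) and Per3 (-0.13). Nr1d2 averaged 6004 ± 626 in Cre and 5544 ± 500.1 in Loxp (log2 fold change 0.11, SE 0.087, 95% interval -0.078 to 0.31). Nr1d1, its paralog, averaged 2541 ± 129 in Cre and 2681 ± 52.9 in Loxp (log2 fold change -0.079, SE 0.056, 95% interval -0.20 to 0.044). Both intervals of the REV-ERB genes included 0.

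Arntl averaged 1006 ± 154 normalized reads in Cre and 1014 ± 135 in Loxp, a log2 fold change of -0.015 (SE 0.12, 95% interval -0.29 to 0.26). Clock averaged 2672 ± 127 in Cre and 2637 ± 102 in Loxp, with a log2 fold change of 0.018 and the interval -0.11 to 0.14. The interval of Arntl was wider than that of Clock. The Per genes had wider intervals than both. Their SDs within groups on the log2 scale were also larger (0.33 for Per1, 0.68 for Per2 and 0.26 for Per3, against 0.21 for Arntl and 0.063 for Clock). Per2 averaged 143 ± 63.7 in Cre and 131 ± 66.7 in Loxp, and its interval, from -0.66 to 0.96 on the log2 scale, was the widest of the 10. Per1 (331 ± 43.7 in Cre, 317 ± 80.8 in Loxp) had the interval -0.32 to 0.50, and Per3 (530.1 ± 129 in Cre, 515 ± 41.9 in Loxp) the interval -0.31 to 0.34. For the cryptochromes the intervals were -0.18 to 0.23 (Cry1, 469.6 ± 33.3 in Cre and 462 ± 46.3 in Loxp) and -0.23 to 0.28 (Cry2, 759.9 ± 83.8 in Cre and 751 ± 114 in Loxp).

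Of the 10 estimates 8 were above 0 and 2 below, with a median log2 fold change of 0.026. Over all tested genes 7050 were above and 6588 below, with a median of 0.0049. The sign of the estimate turned for 7 of the 10 genes when a single library was left out, and it did not for Nr1d1, Nr1d2 and Dbp.

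**Figure D2:**
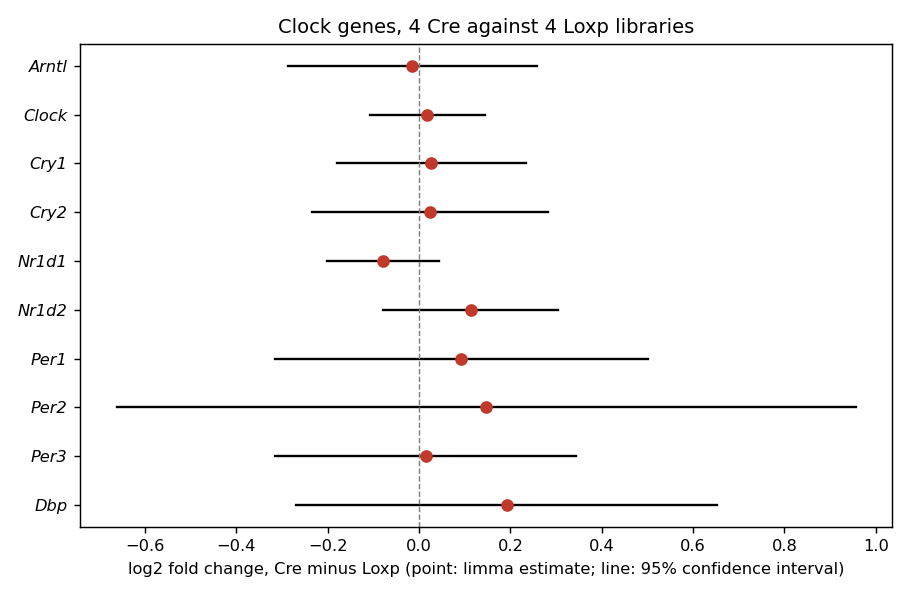
Log2 fold change of each clock gene, Cre minus Loxp (horizontal axis), as the limma estimate (points) with its 95% confidence interval (lines), from 4 libraries per group. Every interval includes 0, the widest being that of Per2 (-0.66 to 0.96) and the narrowest those of Nr1d1 (-0.20 to 0.044) and Clock (-0.11 to 0.14).

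The genes differed more in how far they spread among animals than in how the groups differed. The ratio of the highest to the lowest of the 8 libraries was 3.30 for Per2, 1.98 for Dbp, 1.96 for Per1 and 1.79 for Per3. It was 1.46 for Cry2, 1.43 for Arntl, 1.35 for Nr1d2 and 1.29 for Cry1, and only 1.15 for Nr1d1 and 1.12 for Clock. As the SD within groups on the log2 scale, Per2 reached 0.68, larger than that of 93.5% of the tested genes, and Dbp 0.39, larger than that of 79.9%. Arntl, at 0.21, was near the middle (59.0%). Nr1d1, at 0.056, and Clock, at 0.063, had SDs above those of only 2.79% and 4.55% of the tested genes. These shares are over all tested genes, from 10 normalized reads upward, and were not matched for level. The paralogs Nr1d1 and Nr1d2 thus differed in spread, the SD of Nr1d2 being 0.14.

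The relation between the arms was examined across the 8 libraries, as correlations of log2 values for the 45 pairs of the 10 genes, with exact two-sided permutation p-values over all 40320 pairings. The opposition of Arntl to Nr1d2, Dbp and the Per genes was already known from an earlier look at these data, so the values below describe it and are not independent evidence. Arntl ran against Nr1d2 (r = -0.87, exact permutation p = 0.00496, adjusted p = 0.0744, Spearman's rho = -0.93, exact permutation p = 0.00169, adjusted p = 0.0513) and against Dbp (r = -0.87, exact permutation p = 0.00739, adjusted p = 0.0831, rho = -0.90, exact permutation p = 0.00456, adjusted p = 0.0513). The library with the least Arntl, Cre 6, had the most Nr1d2, and the library with the most Arntl, Loxp 2, had the least Nr1d2 and the least Dbp. Arntl also ran against Per2 (r = -0.81, exact permutation p = 0.0171, adjusted p = 0.106, rho = -0.74, exact permutation p = 0.0458, adjusted p = 0.185). For Per1 r with Arntl was -0.71 (exact permutation p = 0.0329, adjusted p = 0.123, rho = -0.90, exact permutation p = 0.00456, adjusted p = 0.0513), and for Per3 it was -0.71 (exact permutation p = 0.0454, adjusted p = 0.136, rho = -0.48, exact permutation p = 0.243, adjusted p = 0.377).

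**Figure D3:**
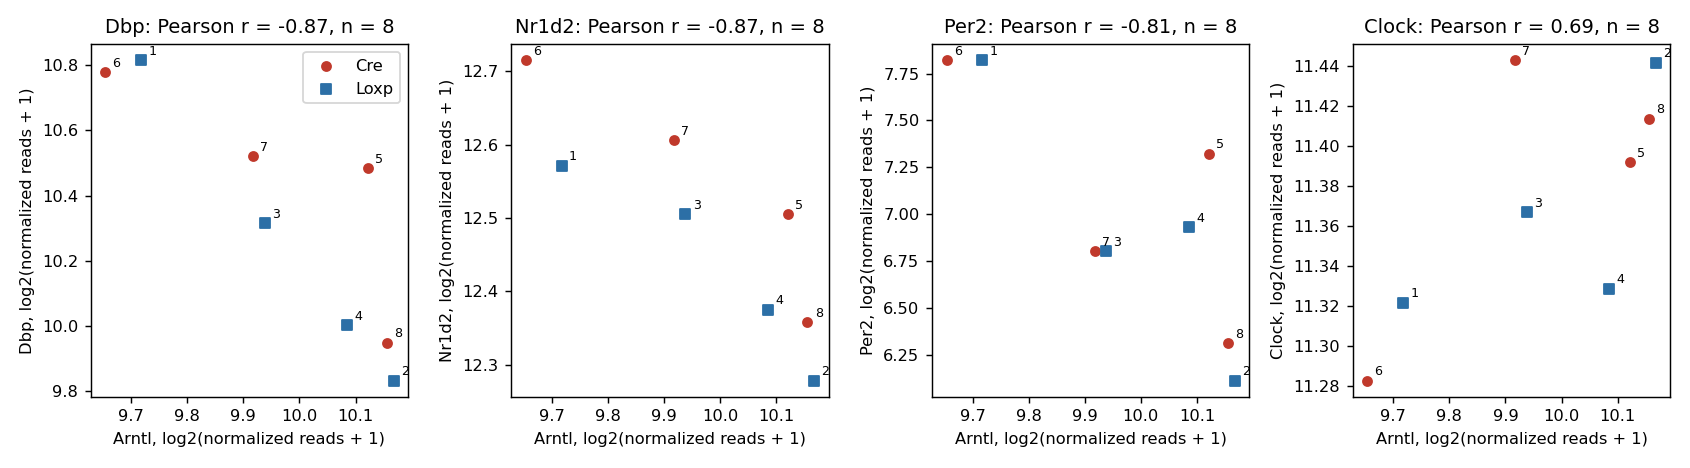
Log2 values of Dbp, Nr1d2, Per2 and Clock (vertical axes, panels from left to right) against the log2 value of Arntl (horizontal axis) in the 8 libraries, each point a library with its number, circles for Cre and squares for Loxp. For Dbp, Nr1d2 and Per2 the points run downward from Cre 6 and Loxp 1 at low Arntl to Cre 8 and Loxp 2 at high Arntl (r = -0.87, -0.87 and -0.81), and for Clock they run upward (r = 0.69).

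Among the genes that the activating pair switches on, Nr1d2, Dbp and Per2 ran together. Nr1d2 and Dbp had the closest relation of all 45 pairs (r = 0.94, exact permutation p = 0.00129, adjusted p = 0.0580, rho = 0.92, exact permutation p = 0.00238, adjusted p = 0.0513), followed by Per2 and Dbp (r = 0.90, exact permutation p = 0.00347, adjusted p = 0.0744, rho = 0.83, exact permutation p = 0.0154, adjusted p = 0.115). Over the 8 libraries Nr1d1 and the cryptochromes had weaker relations with them. With Dbp r was 0.26 for Nr1d1, 0.13 for Cry2 and -0.48 for Cry1. With Nr1d2 it was 0.21 for Nr1d1, 0.072 for Cry2 and -0.50 for Cry1. With Per2 it was 0.50 for Nr1d1, 0.44 for Cry2 and -0.24 for Cry1, and between Per1 and Per3 it was 0.29. The smallest exact permutation p of these r was 0.204. With values centred within each group, Nr1d1 had r = 0.67 with Nr1d2, 0.58 with Dbp and 0.75 with Per2. The exact permutation p was then 0.111, 0.111 and 0.0469, and the adjusted p 0.211, 0.211 and 0.151. Clock ran with Arntl (r = 0.69, exact permutation p = 0.0630, adjusted p = 0.167, rho = 0.62, exact permutation p = 0.115) and against Per2 (r = -0.80, exact permutation p = 0.0195, adjusted p = 0.106, rho = -0.83, exact permutation p = 0.0154) and Nr1d1 (r = -0.71, exact permutation p = 0.0483, adjusted p = 0.136, rho = -0.76, exact permutation p = 0.0368). The cryptochromes passed 0.05 with Arntl neither by r nor by rho over the 8 libraries. Against Arntl r was 0.38 for Cry1 (exact permutation p = 0.350, rho = 0.52, exact permutation p = 0.197) and -0.093 for Cry2 (exact permutation p = 0.828, rho = -0.24, exact permutation p = 0.582). Nr1d1, which hardly varied, had r = -0.41 with Arntl (exact permutation p = 0.308, rho = -0.43, exact permutation p = 0.299). With values centred within each group this r was -0.57 (exact permutation p = 0.212).

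Of the 45 pairs none passed 0.05 after Benjamini-Hochberg adjustment, by Pearson's r or by Spearman's rho, and 16 had an unadjusted p under 0.05 for r. The pairs share genes and libraries, so they are not independent. The share over pairs of all tested genes was not computed, so the 16 cannot be read as particular to the clock genes. Single libraries decide how many pairs passed after adjustment. Without Cre 5 or without Cre 7, 4 pairs passed, and without Loxp 1 or without Loxp 2, 1 pair did. Without Cre 6 and Loxp 1, the 2 libraries farthest from the median of Arntl, r with Arntl was -0.82 for Nr1d2 (exact permutation p = 0.0556), -0.69 for Dbp (exact permutation p = 0.183) and -0.59 for Per1 (exact permutation p = 0.215), with 6 libraries left. For Per2 it was then -0.35, for Per3 -0.072, for Clock 0.060, for Nr1d1 -0.16 and for Cry2 0.55. For Cry1 it was 0.87 (exact permutation p = 0.0278, adjusted p = 0.344), against 0.38 over the 8 libraries. Cre 6 and Loxp 1 hold the 2 lowest values of Arntl, and leaving them out narrows its range. The lower r therefore cannot show what these relations rest on. Leaving out only Cre 6 gave -0.72, -0.45 and 0.49 for Per2, Per3 and Clock. Leaving out only Loxp 1 gave -0.74, -0.69 and 0.63. Nr1d2 and Dbp kept r = 0.91 without the 2 libraries farthest from the median of Nr1d2, which were Cre 6 and Loxp 2. When the values were centred within each group, so that only differences among animals of 1 group counted, r was -0.94 between Arntl and Nr1d2 and -0.89 between Arntl and Dbp (exact permutation p = 0.00694 each, over 576 pairings within groups, adjusted p = 0.104).

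The libraries at the ends of this order also differed in other measured ways. Loxp 2 had the highest adipocyte sum (28765 normalized reads) and the lowest oxidative fast fibre sum (834). Cre 8 had the highest slow fibre sum (17979) and the most reads (48834283), and Cre 6 the fewest reads (30415431). Without Cre 8 and Loxp 2 together, r was -0.81 between Arntl and Nr1d2, -0.80 between Arntl and Dbp and 0.86 between Nr1d2 and Dbp, with 6 libraries left. The part of sequencing depth in the relation was not tested.

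Each Cre animal number is adjacent to that of a Loxp animal, and the clock genes were set side by side in these 4 pairs after their values had been seen. Arntl differed by 0.012 to 0.064 on the log2 scale within the 4 adjacent pairs (Cre 5 with Loxp 4, Cre 6 with Loxp 1, Cre 7 with Loxp 3 and Cre 8 with Loxp 2), against 0.047 to 0.51 within the 12 other pairings of a Cre with a Loxp library. Per2 differed by 0.15 on average within adjacent pairs and by 0.86 within the others, and Dbp by 0.21 and by 0.51. The average was smaller within adjacent pairs for 10 of the 10 clock genes, though by little for Nr1d1 (0.083 against 0.086). The share of all tested genes with a smaller average was not computed, so this count cannot be read as particular to the clock genes. A term for the pair in the limma fit had an unadjusted p under 0.05 for 5 of the 10, against 6.23% of all tested genes. Its adjusted p was under 0.05 for none of the 10, against 0.0147% of all genes. The 5 were Arntl, Per2, Cry2, Nr1d2 and Dbp. All but Cry2 had high r with one another over these libraries, in either direction, so the 5 are not independent results. Nr1d2 was higher in the Cre animal in 4 of 4 adjacent pairs, by 0.080 to 0.14, and Dbp, Per1, Per3 and Cry1 in 3 of 4. Clock, Per2 and Cry2 were higher in 2 of 4, and Arntl and Nr1d1 in 1 of 4. The share of all tested genes higher in 4 of 4 was not computed either. The labels do not say what adjacent numbers stand for, and their part in the opposition of Arntl to Nr1d2 and Dbp was not tested.

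**Figure D4:**
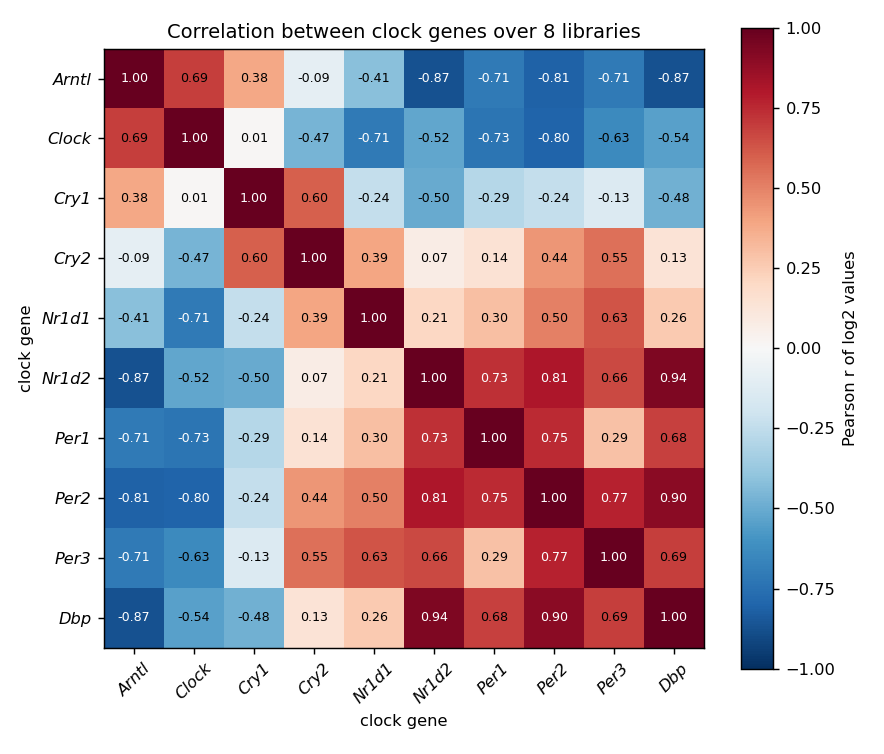
Pearson's r of log2 values between each 2 of the 10 clock genes over the 8 libraries, printed in each cell and coloured from -1 (blue) to 1 (red), with genes on both axes in the same order. Arntl and Clock are negative with Nr1d2, Per1, Per2, Per3 and Dbp (Arntl with Dbp -0.87), which are positive with one another (Nr1d2 with Dbp 0.94).

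The remaining transcription factors of the clock were described from a list of 12, of which 12 passed the filter on low values. None passed the test between Cre and Loxp, before or after adjustment, with 6 estimates above 0 and 6 below and a median log2 fold change of -0.0016. The 2 with the smallest p were Bhlhe41 (DEC2), a repressor of E-box genes, at a log2 fold change of -0.16 (SE 0.10), and Ciart, a repressor of the ARNTL and CLOCK pair, at 0.72 (SE 0.51, 95% interval -0.40 to 1.84). Ciart had 99.3, 108, 85.6 and 33.3 normalized reads in Cre, against 125, 24.6, 49.7 and 26.0 in Loxp. Cre 6 and Loxp 1 were again the 2 highest and Loxp 2 the lowest, and the highest library was 5.07-fold above the lowest.

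Some of the 12 factors had high r with Arntl or Dbp and others did not. Nfil3, which competes with DBP at D-boxes, had 508, 368, 473 and 567 normalized reads in Cre, against 374, 558, 502 and 632 in Loxp. Npas2, a paralog of Clock that also pairs with ARNTL, had 30.3, 18.3, 24.0 and 36.8 in Cre, against 11.1, 47.0, 43.0 and 43.3 in Loxp. For both, Cre 6 and Loxp 1 held the 2 lowest values. Over the 8 libraries r with Arntl was 0.92 for Nfil3 and 0.82 for Npas2, and r with Dbp was -0.91 for Nfil3 and -0.88 for Npas2. On the side of Dbp stood Ciart (r = 0.97 with Dbp, -0.74 with Arntl), Arntl2 (0.81 with Dbp, -0.71 with Arntl), Bhlhe40 (0.79 with Dbp, -0.66 with Arntl) and Tef (0.77 with Dbp, -0.57 with Arntl). The relations were weaker for Rora (0.55 with Dbp, -0.54 with Arntl), Bhlhe41 (0.40 with Dbp, -0.56 with Arntl), Hlf (0.33 with Dbp, -0.41 with Arntl), Rorb (-0.29 with Dbp, 0.28 with Arntl) and Timeless (0.14 with Dbp, -0.19 with Arntl). Rorb, Npas2 and Arntl2 rest on few reads, with means of 16.2 normalized reads in Cre and 12.8 in Loxp for Rorb and 11 reads in the lowest library of Npas2. These r are given as descriptions over 8 libraries, without a test, and the genes share the same libraries and depth.

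**Figure D5:**
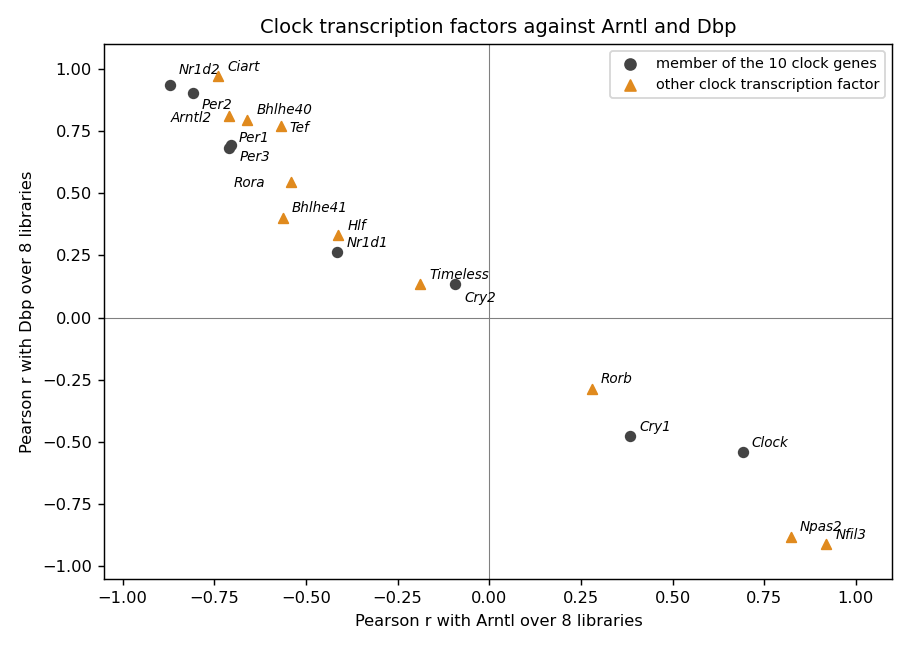
Pearson's r with Dbp (vertical axis) against Pearson's r with Arntl (horizontal axis), over the 8 libraries, for the members of the 10 clock genes other than Arntl and Dbp (circles) and for other clock transcription factors named in the text (triangles). Nfil3 (0.92, -0.91) and Npas2 (0.82, -0.88) lie with Clock at the lower right, and Ciart (-0.74, 0.97) lies with Nr1d2 and Per2 at the upper left.

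The 13637 other tested genes were put in order of r with Arntl, in which some of the clock genes were near an end and others in the middle. Nr1d2 and Dbp had the 39th and 40th lowest r, and Nfil3 had the 15th highest. From the highest, Cry1 ranked 2671st, Cry2 7767th and Nr1d1 11151st. The 5 highest r with Arntl among genes outside the 10 were those of Ypel2 (0.96), Mid1 (0.95), Tlr2 (0.95), Col4a5 (0.95) and Gas2l3 (0.95). Among the 5 lowest were those of Ggps1 (-0.97), Tbk1 (-0.95), Fbxo44 (-0.94) and Tchp (-0.94). With Dbp the 5 highest were Bmi1 (0.98), Ciart (0.97), Igbp1 (0.97), Aamp (0.96) and Rbm24 (0.96), so that Ciart ranked 2nd of all genes, Nr1d2 21st and Per2 55th, but Nr1d1 4238th and Cry2 5509th. The 5 lowest with Dbp were Igf2bp2 (-0.97), Rtn3 (-0.96), Agap1 (-0.96), Ice1 (-0.96) and Dok1 (-0.95).

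Enzymes and cofactors that act on clock proteins gave 15 tested genes of a list of 16, with Fbxl21 below the filter. None passed the test between Cre and Loxp before or after adjustment, with 7 estimates above 0 and 8 below and a median log2 fold change of -0.0074. The smallest p-values were those of Csnk1d, the casein kinase 1 delta that phosphorylates PER proteins, at -0.12 (SE 0.070), and of Gsk3b, the kinase glycogen synthase kinase 3 beta, at -0.14 (SE 0.092). Across the libraries Usp2, a deubiquitinase whose transcript is itself clock-controlled, had r = -0.85 with Arntl and 0.80 with Dbp, and was named after its values were seen.

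Output genes of the clock gave 14 tested genes of 14, none of which passed after adjustment. Of these, 1 had an unadjusted p under 0.05 and was lower in Cre, against 1.72% of all genes lower by that rule. It was Por, which encodes cytochrome P450 oxidoreductase, with 363 ± 16.6 normalized reads in Cre and 462 ± 95.1 in Loxp (log2 fold change -0.33, unadjusted p = 0.0241, adjusted p = 0.999526, limma). The highest of its Loxp libraries was Loxp 2, at 599 normalized reads, and the log2 fold change was -0.20 without Loxp 2 and -0.13 without Loxp 2 and Loxp 3, the libraries with high adipocyte sums. The median over the list was -0.012, and 6 estimates were above 0 and 8 below.

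Glucocorticoids and sampling stress both reach clock genes, Per1 in particular, so genes that respond to them were read beside it. Of 7 tested glucocorticoid-responsive genes of 7, none passed after adjustment, and 1 was lower in Cre at an unadjusted p under 0.05, against 1.72% of all genes. It was Zbtb16 (PLZF, a zinc finger repressor). It averaged 2026 ± 104 normalized reads in Cre and 2374 ± 114 in Loxp, with no overlap between the groups, as for 1.92% of all genes (log2 fold change -0.23, unadjusted p = 0.00300, adjusted p = 0.999526, limma). The list's median log2 fold change was 0.027. Of 7 tested immediate early genes of 8 (Fosb was below the filter), none passed after adjustment, and 1 was higher in Cre at an unadjusted p under 0.05, against 1.19% of all genes. It was Jun, with 1790 ± 230.2 normalized reads in Cre and 1524 ± 186 in Loxp (log2 fold change 0.23, unadjusted p = 0.0476, adjusted p = 0.999526, limma), or 0.15 without Cre 7, and the list's median was -0.060. Along the order of the libraries Sgk1, a glucocorticoid-induced kinase, had r = 0.92 with Dbp, the 40th highest of all genes. Sgk1 too was named after its values were seen. The other glucocorticoid-responsive genes went both ways, with r of 0.56 with Dbp for Klf9 and 0.38 for Tsc22d3. For Zbtb16 it was -0.25, for Ddit4 -0.28, for Fkbp5 -0.36 and for Mt2 -0.64.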

How the data were processed

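RNA was extracted with a Norgen kit and made into TruSeq stranded libraries, per the labels. The submitters' processing notes list cutadapt, FastQC, STAR, HTSeq and DESeq2 and the build GRCm38 without versions, and no source used here names the annotation. The values the authors deposited, handled as scores, were found from the values themselves to be log2 of a normalized read count plus 1. With the log undone, 100% of the deposited values below 1000 reads were within 0.1 of whole multiples of 1 read. The Cre and Loxp libraries were set against each other on the deposited log2 values by limma 3.58.1 (R 4.3.3) with a variance trend, over the 13638 genes that reached 10 normalized reads in 4 or more of the 8 libraries. The pseudocount of 1 understates the changes of low genes.

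The 10 genes and all lists were chosen with earlier results of these data known. Named genes were the 10, Acot2, members of each list with an unadjusted p under 0.05 (at most 4, otherwise the 2 with the smallest p), and the 5 highest and 5 lowest r with Arntl and with Dbp. A gene of this rule and a gene of the lists are not reported here; counts and medians include them. Kbtbd12, Thra, Sphk2, Nfil3, Npas2 and others in the account of correlations were added to these after their values were seen. The fit and the permutation test were checked on simulated data. Replicates differed by a chi-square per gene of 25.8 to 78.6, against about 1 for sampling noise, so each library counted as 1 replicate. Each title carries its own animal number, and p-values measure the spread between these animals. Alternatives were other pseudocounts, filters and scalings, library weights, limma-voom on recovered reads, a block, and left-out libraries.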

Additional observations from a re-analysis of the deposited data

Results flagged for a closer look

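Among the 19 genes whose groups were searched for a library standing apart (38 groups of 4), 1 was found. Kbtbd12 had 1721.9, 1839.9, 1729.7 and 1715.2 normalized reads in Loxp 1 to Loxp 4, and the gap of Loxp 2 to the next library was 0.880 of the group's range, above Dixon's 95% critical value. Chance gives about 1 such group in 20. No clock gene had such a library in either group.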

How the results depend on the processing

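No clock gene passed the test between Cre and Loxp under any alternative run, and the smallest adjusted p of any of the 10 was 0.899916. The 2 genes called in all were called under every one. Of 585 recomputed values 540 kept direction and side of the threshold. With limma-voom the log2 fold change of Arntl was 0.016. Without Loxp 2 and Loxp 3, the libraries with high adipocyte sums, it was 0.061 for Arntl, -0.17 for Per1, -0.31 for Per2, -0.024 for Per3, -0.025 for Cry1 and -0.12 for Cry2, and without Cre 7 and Cre 8, those with high slow fibre sums, -0.027 for Clock, 0.65 for Per2, 0.27 for Per3, 0.16 for Cry2 and 0.39 for Dbp. Leaving out 1 library at a time gave ranges of -0.10 to 0.088 for Arntl (above 0 without Cre 6, Loxp 2 or Loxp 4), -0.0019 to 0.051 for Clock (below 0 without Cre 7), -0.12 to 0.19 for Per1 (below 0 without Loxp 2), -0.12 to 0.45 for Per2 (below 0 without Cre 6 or Loxp 2), -0.13 to 0.15 for Per3 (below 0 without Cre 5, Cre 6, Loxp 3 or Loxp 4), -0.042 to 0.065 for Cry1 (below 0 without Cre 8 or Loxp 3) and -0.080 to 0.10 for Cry2 (below 0 without Cre 5, Cre 6 or Loxp 3). The sign did not turn for Nr1d1 (-0.11 to -0.050), Nr1d2 (0.057 to 0.18), Dbp (0.056 to 0.38) and Ciart (0.44 to 1.21). The cause was not tested.

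The number of the 45 pairs that passed was 3 under quantile normalization and 1 under upper-quartile scaling, and 0 to 4 with 1 library left out. With quantile normalization r was 0.95 for Nr1d2 with Dbp (adjusted p = 0.0134, exact permutation) and 0.91 for Per2 with Dbp (adjusted p = 0.0439, exact permutation), and with upper-quartile scaling 0.94 for Nr1d2 with Dbp (adjusted p = 0.0391, exact permutation). With 1 library left out, r ran from -0.94 to -0.72 for Arntl with Per2, -0.93 to -0.78 for Arntl with Nr1d2, -0.98 to -0.82 for Arntl with Dbp, 0.91 to 0.98 for Nr1d2 with Dbp, 0.86 to 0.95 for Per2 with Dbp and -0.25 to 0.22 for Arntl with Cry2 (above 0 without Cre 6 or Cre 8). Without Cre 8 and Loxp 2, an alternative chosen after seeing the data, r was -0.69 for Arntl with Per2, -0.80 for Arntl with Dbp, 0.78 for Per2 with Dbp and 0.024 for Arntl with Cry2, for which it was 0.55 without Cre 6 and Loxp 1. Ciart has no value under the filter at a mean of 100 normalized reads.

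The groups share no replicate numbers. A replicate block was built from adjacent animal numbers, which the labels do not call a pair. Over all genes the deviations correlated at -0.081 for Cre 5 with Loxp 4 and 0.15 for Cre 6 with Loxp 1. They correlated at 0.19 for Cre 7 with Loxp 3 and -0.083 for Cre 8 with Loxp 2. Among the 12 other pairings r ran from -0.22 to 0.19, so the numbers were not taken as a pairing. With the replicate block 2 genes were called, as without it, and the values nearest to a call among the clock genes were those of Nr1d2 (log2 fold change 0.11, unadjusted p = 0.0517, adjusted p = 0.995, limma) and Dbp (0.19, unadjusted p = 0.0568). Of the 10 genes depth limits Per2 most, and among the other clock factors Rorb, Npas2, Arntl2 and Ciart have low counts. The 8 libraries limit every correlation.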
